A study of Sus scrofa with 6 samples.

Results

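The genes that encode collagen chains were examined in porcine embryonic fibroblasts (PEFs) and in the induced pluripotent stem cells (piPSCs) made from them. They were taken as every gene whose symbol is COL, a number, A and a number, which gave 30 of the 18007 genes in the table of expression values. The groups were 3 PEF lines (PEF5, PEF7 and PEF8), grown from the ear tip of embryos of a Large White boar and a Meishan sow on embryonic day 90, and 3 piPSC lines (piPSC5, piPSC7 and piPSC8), each derived from the PEFs that share its number. The PEF lines, labelled as somatic cells, were the starting cells. The piPSC lines came from colonies picked after lentiviral delivery of doxycycline-inducible Oct4, Sox2, Klf4 and c-Myc with the M2rtTA activator, and were then kept on mouse feeder cells. One poly-A RNA-seq library was read per line, so each group had 3 libraries from sibling embryos and no line was replicated. Below, values are listed for lines 5, 7 and 8 in that order. Mouse feeder RNA in the piPSC libraries cannot be separated from pig RNA in values given per gene.

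Collagens are proteins of the extracellular matrix in which 3 chains wind into a triple helix. Each chain carries long stretches in which glycine recurs after every pair of other amino acids, because glycine alone is small enough for the centre of the helix. Fibrillar collagens form the load-bearing fibrils that fibroblasts lay down in skin and tendon, while other types build basement membranes, coat fibrils, anchor the epidermis or span the cell membrane. The chains are made in the endoplasmic reticulum, where prolines and lysines are hydroxylated and a dedicated chaperone holds the helix together until the trimer is secreted.

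The shared coding structure of the chains was read from the RefSeq annotation of Sscrofa11.1, the build of the table. Of 1432 coding exons in the models of the 30 genes, 340 (23.74%) were exactly 54 bases long, against 1433 of all 211570 distinct coding exon intervals in the annotation (0.68%). Multiples of 9 bases, the length of a glycine codon and the codons of the amino acids on either side up to the next glycine, made up 60.5% of the coding exons of the chains and 14.3% of all. An exon of 54 bases from each of 5 fibrillar chains is shown because it holds the repeat in its plainest form, with the glycine codon that opens each triplet in capitals. They are coding exon 8 of COL1A1 (chr12:26393098-26393151, minus strand) and of COL1A2 (chr9:74184187-74184240, plus strand), coding exon 6 of COL3A1 (chr15:93571887-93571940, plus strand) and of COL5A2 (chr15:93674755-93674808, minus strand), and coding exon 16 of COL11A1 (chr4:115722475-115722528, plus strand).
COL1A1: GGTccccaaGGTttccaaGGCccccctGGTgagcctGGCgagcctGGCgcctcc
COL1A2: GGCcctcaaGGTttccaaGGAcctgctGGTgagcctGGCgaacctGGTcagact
COL3A1: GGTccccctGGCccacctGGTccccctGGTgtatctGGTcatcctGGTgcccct
COL5A2: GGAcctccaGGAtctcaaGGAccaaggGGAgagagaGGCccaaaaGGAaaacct
COL11A1: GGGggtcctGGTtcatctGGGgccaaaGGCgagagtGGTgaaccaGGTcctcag
Each was picked as the first coding exon of 54 bases in its gene with a glycine codon opening each of its 6 triplets. The exons of COL1A1 and COL1A2, the chains that combine in type I collagen, were identical at 42 of 54 bases. These include the GG of each glycine codon, which that choice fixed, and no other pair of chains was compared.

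Runs of at least 5 glycine triplets in a row were counted along each coding sequence. Among the fibrillar chains, the longest unbroken run was 338 triplets in COL1A1, 339 in COL1A2 and COL5A2, 343 in COL3A1 and 337 in COL5A3. COL11A1, with 245 triplets, COL27A1, with 217, COL5A1, with 178, and COL2A1, with 174, had shorter longest runs in these models. The basement membrane chains had a repeat that was broken many times. COL4A2 had 24 runs of which the longest held 66 triplets, COL4A5 had 23 with a longest of 42, and COL4A4 had 27 with a longest of 45. The share of codons inside the repeats was 85% in COL9A2, 77.8% in COL1A2 and 72.6% in COL1A1, and only 8.0% in COL12A1 and 10.5% in COL6A3, whose chains are mostly made of other domains. The RefSeq model of COL6A3 holds 1 stop codon inside its coding sequence, so its repeat count describes the model rather than the protein.

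**Figure D1:**
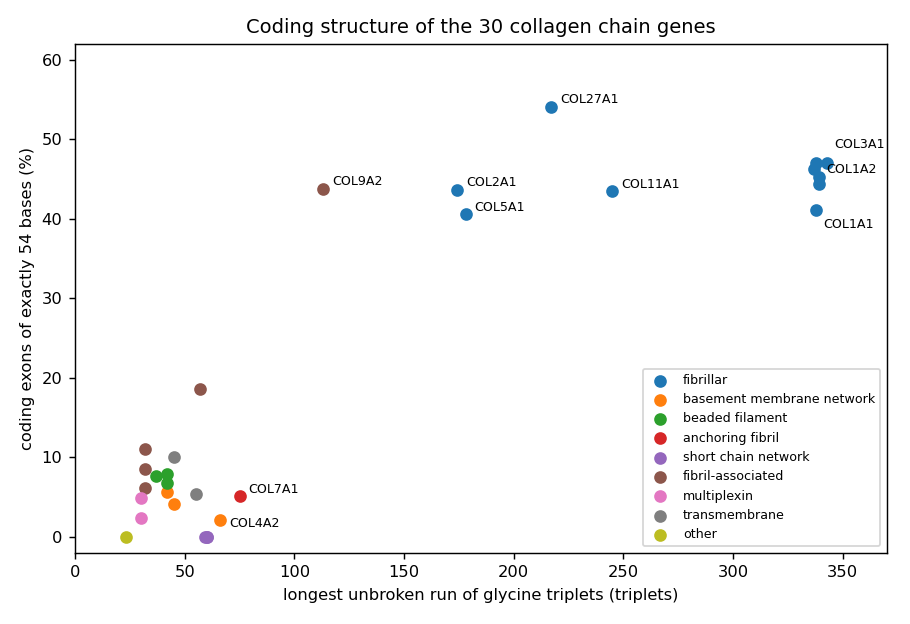
Each point is 1 of the 30 collagen chain genes, by the longest unbroken run of glycine triplets in its RefSeq coding sequence (x axis, triplets) and the share of its coding exons that are exactly 54 bases long (y axis, percent), coloured by type of collagen. The fibrillar chains and COL9A2 sit above 40%, COL1A2 and COL3A1 at runs of 339 and 343 triplets, while COL4A2 and COL7A1 sit near the bottom with runs of 66 and 75.

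Library depth, recovered from the values themselves, was 15146576 to 17836510 fragments in the PEF libraries and 11010629 to 15050204 in the piPSC libraries. The fibroblast markers PDGFRA, PDGFRB, THY1, DCN, LUM, FBN1, FN1, VIM and FAP, all 9 of which are in the table, summed to 2193 to 3539.5 FPKM (fragments per kilobase of gene model, scaled for library depth) in the PEF libraries and 204 to 259 in the piPSC libraries. VIM, which many cell types express, gave 208, 249 and 74.4 FPKM of the piPSC sums, and FAP was higher in piPSC8 (7.51 FPKM) than in any PEF library. Of 9 pluripotency markers 7 were in the table, and they summed to 0.0703 to 0.202 FPKM in PEFs and 2.96 to 9.16 in piPSCs. In the piPSC libraries nearly all of that came from SOX2 and LIN28B, in different parts by line. SOX2 was at 3.01, 2.49 and 0.129 FPKM and LIN28B at 2.51, 0.281 and 8.9 in piPSC5, piPSC7 and piPSC8. Sox2 was also a delivered factor, and reads of the transgene cannot be separated in values given per gene. The 2 markers not found in the table were not analysed here. NANOG was listed at 0 in all libraries but piPSC7 (0.0919 FPKM), and EPCAM and CDH1, which mark epithelial pluripotent colonies, stayed at or under 0.113 FPKM in piPSCs. Fragments on 4 Y-linked genes numbered 4190 in PEF8 and 4915 in piPSC8, and at most 1 in each library of lines 5 and 7, although the lines were described as male. For the chains, results are therefore also given without both libraries of line 8 where a call changed.

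Collagen transcripts as a whole were far less abundant in the piPSC libraries. The 30 chains took 3.15%, 4.41% and 2.86% of all fragments in the PEF lines, and 0.284%, 0.214% and 0.297% in the piPSC lines. Per length, their summed level was 5045, 6933 and 4774 FPKM in the PEF libraries and 423, 359 and 409 FPKM in the piPSC libraries. The groups did not overlap, and the 3 piPSC libraries lay closer to each other than the 3 PEF libraries did. In bulk RNA, fewer cells that make collagen and less collagen RNA per cell cannot be told apart.

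The chains that made up this total were different. Shares are of the summed FPKM of the 30 chains, which leaves out the 9 chains listed by identifier only. Among those, COL6A1 was at 657, 1387 and 581 FPKM in the PEF lines and at 59.4, 24.6 and 3.67 in the piPSC lines. COL1A1 and COL1A2 held the largest shares in PEF5 and PEF7, with 32.3% and 33.8% of the sum in PEF5 and 40.7% and 34.3% in PEF7. In PEF8 COL3A1 was the first single chain with 34.4%, ahead of COL1A2 with 29.6% and COL1A1 with 18.2%, which together held 47.8%. In the piPSC libraries COL1A1 held 13.8% in piPSC5 but 1.12% in piPSC7 and 0.554% in piPSC8. COL3A1 held 22.3%, 30.5% and 30.6% there. The first place in piPSC7 was taken by COL9A2 with 42.2%, and the second place in piPSC8 by COL4A2 with 22.2%. COL11A1, at most 0.34% of the collagen FPKM in any PEF library, held 15.6%, 8.73% and 18.4% in piPSC5, piPSC7 and piPSC8.

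**Figure D2:**
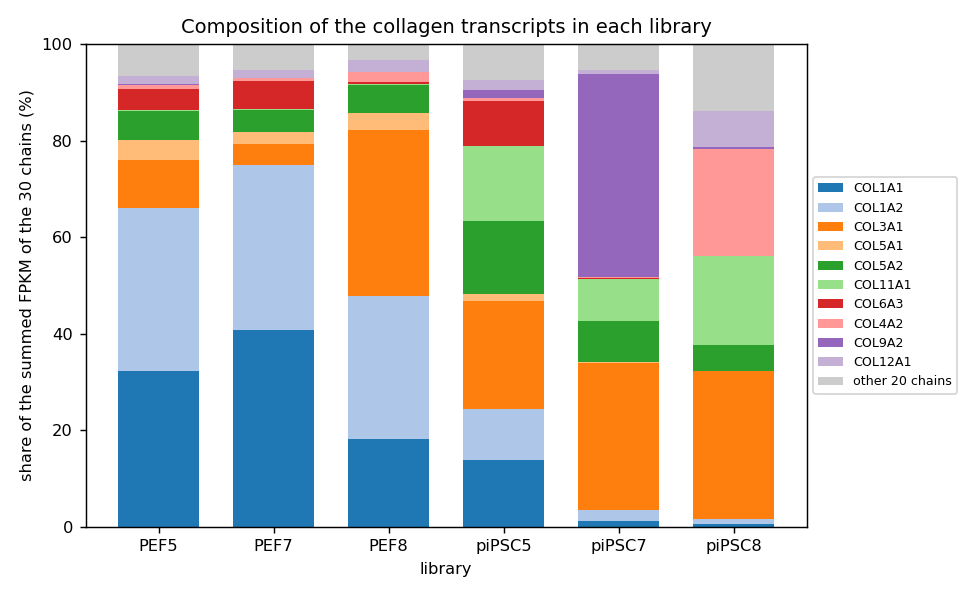
Stacked bars give the share of the summed FPKM of the 30 collagen chain genes (y axis, percent, 0 to 100) that each of 10 named chains and the other 20 together took in each of the 6 libraries (x axis). COL1A1 and COL1A2 fill 66% of the bar of PEF5 and 75% of that of PEF7, while COL3A1, COL11A1, COL9A2 and COL4A2 fill most of the bars of piPSC7 and piPSC8.

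Of the 30 chains, 20 had a mean of at least 0.5 FPKM over the 6 libraries and were tested with limma on log2(FPKM + 1) within the fit of all 12428 genes that passed the same filter. Calls required a change of 2-fold or more together with a Benjamini-Hochberg adjusted p below 0.05. In piPSCs 12 of the 20 tested chains were called lower and 1 was called higher, while 7 were not called. Over all tested genes the shares were 16.7% called lower and 20.2% called higher. The median log2 fold change was -2.73 for the 20 chains and 0.20 for all tested genes. Of the 20 chains, 11 were at least 2-fold lower in all 3 lines taken singly, which 11.9% of all tested genes were, and 0 were at least 2-fold higher in all 3, against 12.8% of all tested genes. The PEF and piPSC values did not overlap for 12 chains that were lower (26.8% of all tested genes) and for 2 that were higher (37.3%). Rescaling the libraries by their median gene ratios moved the median of all tested genes from 0.20 to -0.01, and rescaling to a common sum of FPKM moved it to -0.07. Of all calls 54.8% were higher in piPSCs as deposited, and 42.8% and 40.9% after these rescalings, while 13 chains were called lower and 1 higher after each of them. The filter was applied again to the rescaled values. It left 20 chains among 12403 genes after the median ratio and 21 chains among 13867 genes after the common sum. Among all tested genes, 20.2% and 21.1% were called lower after these rescalings, and 15.1% and 14.6% higher. Without both libraries of line 8, 14 chains were called lower and 2 higher, against 15.8% and 20.1% of all tested genes.

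**Figure D3:**
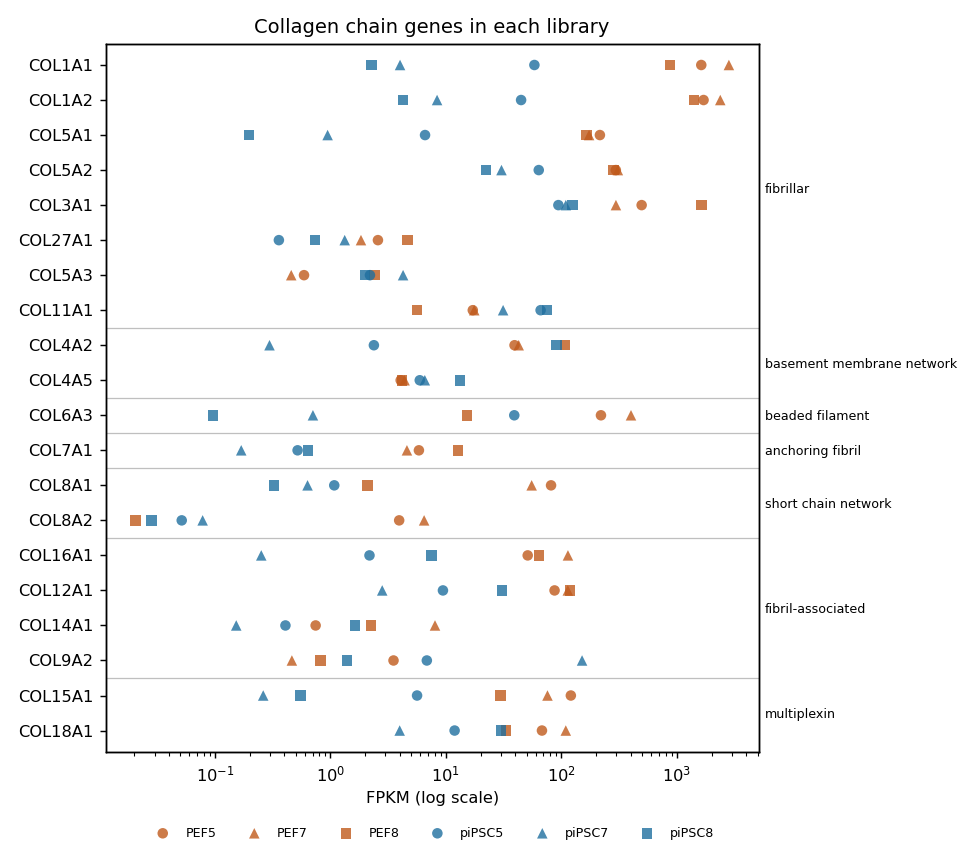
Points give the FPKM (x axis, log scale) of the 20 tested chains (y axis, grouped by type of collagen) in each library, with PEF in orange, piPSC in blue and line 5, 7 and 8 as circle, triangle and square. COL1A1, COL1A2 and COL5A1 show the widest gaps between groups, COL11A1 lies higher in every piPSC library than in any PEF library, and COL4A2, COL6A3 and COL9A2 spread over more than 100-fold among the piPSC lines.

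The 2 chains of type I collagen, the main fibril protein of skin and bone, fell the most. COL1A1 (ENSSSCG00000036135, chr12:26379000-26397284, minus strand) was at 1627, 2822 and 869 FPKM in the PEF lines and 58.4, 4.01 and 2.27 FPKM in the piPSC lines. COL1A2 (ENSSSCG00000015326, chr9:74174220-74210398, plus strand) was at 1703, 2376 and 1414 FPKM in the PEF lines and 44.8, 8.39 and 4.24 FPKM in the piPSC lines. Every piPSC library lay far below every PEF library for both chains, and piPSC5 was the highest of the 3 piPSC libraries for both. The log2 fold changes were -7.32 (SE 1.09, adjusted p = 0.00236) for COL1A1 and -7.09 (SE 0.76, adjusted p = 0.000788) for COL1A2. By level, COL1A1 ranked 16, 6 and 43 among all genes in PEF5, PEF7 and PEF8, and 883, 7926 and 8720 in piPSC5, piPSC7 and piPSC8.

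Type III collagen, a trimer of COL3A1 chains that mixes with type I in skin and vessel walls, was also lower but stayed at a high level. COL3A1 (ENSSSCG00000016034, chr15:93556914-93596360, plus strand) was at 496, 297 and 1640.0 FPKM in the PEF lines and 94.2, 109 and 125 FPKM in the piPSC lines. The PEF values differed 5.53-fold between their highest and lowest line and the piPSC values 1.33-fold. Its log2 fold change was -2.51 (SE 0.59, adjusted p = 0.0126), and it ranked 485, 444 and 362 among all genes in the piPSC libraries. COL3A1 was thus the most abundant tested fibrillar chain per length in each piPSC library, ahead of COL11A1. The ratio of COL3A1 to COL1A1 in FPKM was 0.305, 0.105 and 1.89 in the PEF lines and 1.61, 27.2 and 55.3 in the piPSC lines. The groups overlapped, and the difference of 4.82 on the log2(FPKM + 1) scale had an exact two-sided permutation p of 0.2, where 3 against 3 libraries cannot go below 0.1.

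Type V chains sit at the core of type I fibrils and set their diameter. COL5A1 (ENSSSCG00000005751, chr1:273956343-274082908, plus strand) was at 216, 174 and 166 FPKM in the PEF lines and 6.6, 0.946 and 0.198 FPKM in the piPSC lines. COL5A2 (ENSSSCG00000016035, chr15:93611549-93843645, minus strand), which usually assembles with COL5A1, was at 296, 308 and 282 FPKM in the PEF lines and 63.7, 30.3 and 22.2 FPKM in the piPSC lines. Both fell, COL5A1 by a log2 fold change of -6.15 (SE 0.64, adjusted p = 0.000731) and COL5A2 by -3.04 (SE 0.36, adjusted p = 0.0011). The ratio of COL5A1 to COL5A2 in FPKM was 0.728, 0.563 and 0.586 in the PEF libraries and 0.104, 0.0312 and 0.00892 in piPSC5, piPSC7 and piPSC8. The groups did not overlap in this ratio, which was lower by 3.11 on the log2(FPKM + 1) scale in piPSCs, with an exact two-sided permutation p of 0.1, the smallest that 3 against 3 can give, and an adjusted p of 0.175 over 7 ratios. COL5A3 (ENSSSCG00000013667, chr2:68828197-68869943, minus strand), the chain that replaces another in a rarer trimer, was at 0.591, 0.458 and 2.41 FPKM in the PEF lines and 2.2, 4.26 and 1.99 FPKM in the piPSC lines. PEF8 lay within the range of the piPSC lines, the log2 fold change was 0.89 (SE 0.41, adjusted p = 0.11), and it was not called. Without PEF8 the adjusted p of COL5A3 was 0.0279, and without both libraries of line 8 it was 0.0242, at which it was called higher.

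COL11A1 was the single one of the 20 tested chains called higher in piPSCs. It encodes a chain of type XI collagen, which seeds the thin fibrils of cartilage and can join type V chains in other tissues. COL11A1 (ENSSSCG00000006857, chr4:115638098-115840706, plus strand) was at 17.1, 17.6 and 5.61 FPKM in the PEF lines and 66.1, 31.3 and 75.3 FPKM in the piPSC lines. The 3 piPSC values lay above the 3 PEF values, by the least in line 7 and the most in line 8, and the log2 fold change was 2.07 (SE 0.50, adjusted p = 0.0142). Without piPSC5 the adjusted p was 0.0507, and COL11A1 was not called. Another chain of type XI, COL11A2, had at most 2 fragments in any library, and COL2A1, the main chain of cartilage fibrils, had at most 4. The 7 markers of chondrocytes that had been listed summed to 1.15 to 13.3 FPKM in PEFs and 5.15 to 31.5 in piPSCs, where HAPLN1 alone gave 30.8 FPKM in piPSC5. SOX9, their defining regulator, was at 0.501 to 4.5 FPKM in PEFs and at 0.13, 0 and 0 in piPSC5, piPSC7 and piPSC8.

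COL27A1, a fibrillar chain of cartilage, was the smallest call. COL27A1 (ENSSSCG00000005487, chr1:254769519-254922939, plus strand) was at 2.58, 1.84 and 4.63 FPKM in the PEF lines and 0.358, 1.33 and 0.735 FPKM in the piPSC lines. The groups did not overlap, but in line 7 the piPSC value was close to that of the PEF line, with a log2 ratio of -0.28. The log2 fold change was -1.13 (SE 0.34, adjusted p = 0.0315). The call was lost with the line as a block (adjusted p = 0.0585), without the filter on low values (0.0551), without PEF5 (0.0718), PEF8 (0.0794), piPSC5 (0.0982) or piPSC8 (0.0627), and without both libraries of line 8 (0.112).

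The promoters of 3 fibrillar chains are shown because these genes ended at different levels in piPSCs: COL1A1 and COL1A2 were called lower by the most and COL11A1 was called higher. Each is the stretch of 250 bases before the start that RefSeq gives on Sscrofa11.1, with CCAAT (or ATTGG, the same box on the other strand) and TATAAA in capitals. The stretches are chr12:26397181-26397430 on the minus strand, chr9:74174234-74174483 on the plus strand and chr4:115638131-115638380 on the plus strand.
COL1A1: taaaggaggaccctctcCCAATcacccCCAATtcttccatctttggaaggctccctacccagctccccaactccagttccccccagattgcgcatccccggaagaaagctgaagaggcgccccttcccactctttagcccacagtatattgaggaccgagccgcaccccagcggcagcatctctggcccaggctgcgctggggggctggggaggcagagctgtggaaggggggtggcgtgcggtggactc
COL1A2: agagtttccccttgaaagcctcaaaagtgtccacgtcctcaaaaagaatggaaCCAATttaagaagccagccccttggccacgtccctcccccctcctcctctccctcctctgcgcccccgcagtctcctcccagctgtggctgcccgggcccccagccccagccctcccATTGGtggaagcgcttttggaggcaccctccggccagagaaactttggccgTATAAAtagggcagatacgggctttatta
COL11A1: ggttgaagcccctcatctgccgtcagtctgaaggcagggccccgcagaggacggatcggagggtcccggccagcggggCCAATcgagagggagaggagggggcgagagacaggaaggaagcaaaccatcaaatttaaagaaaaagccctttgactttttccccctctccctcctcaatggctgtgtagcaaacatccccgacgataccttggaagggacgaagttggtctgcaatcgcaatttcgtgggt
The table's own gene models start further upstream than RefSeq for COL1A1, COL1A2 and COL11A1, within the stretch of COL1A1 and just before those of COL1A2 and COL11A1. COL1A1 and COL1A2 each hold 2 CCAAT boxes, COL11A1 holds 1, and only COL1A2 of these 3 has TATAAA, which begins 29 bases before the start. The stretches have 62.8% G and C for COL1A1, 58.8% for COL1A2 and 56.8% for COL11A1, against a median of 57.6% over all 19531 such windows. Searched on both strands, CCAAT was found in 15 of the 30 windows of collagen chains (50%) and 31.9% of all windows. TATAAA was in 5 (16.7%, against 9.8%), the GC box GGGCGG in 14 (46.7%, against 45.9%), the AP-1 site TGANTCA in 2 (6.7%, against 5.3%), the RUNX site TGTGGT in 4 (13.3%, against 14.0%) and the TEAD site GGAATG in 1 (3.3%, against 10.3%). A match is a description of letters, and none of these was tested as a binding site.

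**Figure D4:**
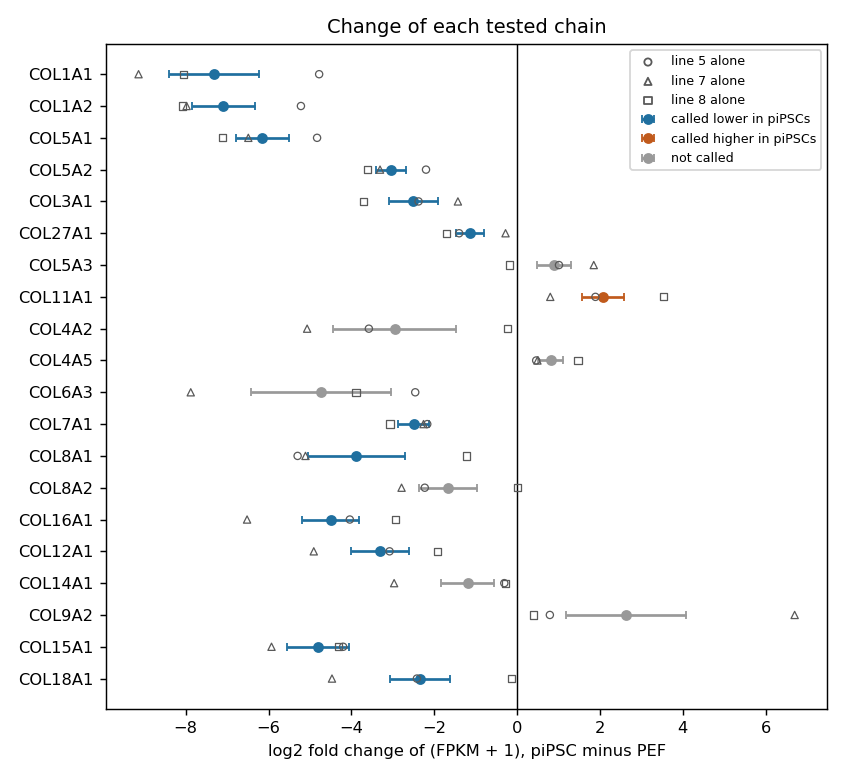
Filled points give the log2 fold change of (FPKM + 1), piPSC minus PEF (x axis), of each of the 20 tested chains (y axis), and bars give 1 standard error. Open circles, triangles and squares are the same difference within lines 5, 7 and 8 alone. The 12 chains called lower run from -1.13 to -7.32, COL11A1 stands at 2.07, and the open symbols of COL4A2, COL6A3 and COL9A2 lie far apart.

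The network chains of basement membranes, the sheets under epithelia and around vessels, were not called as tested, and the piPSC lines differed from each other. COL4A2 (ENSSSCG00000009545, chr11:76997126-77165491, plus strand) was at 39.3, 42.7 and 108 FPKM in the PEF lines and 2.38, 0.297 and 90.7 FPKM in the piPSC lines. Both piPSC5 and piPSC7 lay far under every PEF library, while piPSC8 lay between the PEF values and 306-fold above piPSC7. The log2 fold change was -2.96 (SE 1.49, adjusted p = 0.137). Without piPSC8 the adjusted p was 0.00279, and without both libraries of line 8 0.00412, with COL4A2 then called lower. Markers of endothelium, which lies on a type IV collagen sheet, summed to 0.646 to 2.71 FPKM in PEFs and 0.0614 to 1.21 in piPSCs, with the lowest sum in piPSC8. Those of primitive endoderm, which also secretes it, were found in the table for 5 of 7 and summed to 0.178 to 8.63 FPKM in PEFs and 0.0826 to 0.815 in piPSCs, again with the lowest sum in piPSC8. The partner chain COL4A1 was not analysed here.

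COL4A5 (ENSSSCG00000012572, chrX:88958616-89183372, plus strand), an X-linked chain of the basement membranes of kidney, ear and eye, was at 4.06, 4.39 and 4.18 FPKM in the PEF lines and 5.94, 6.57 and 13.3 FPKM in the piPSC lines. The PEF lines differed by only 1.08-fold, and every piPSC value lay above them. Its log2 fold change was 0.81 (SE 0.30, adjusted p = 0.0613), so it was not called. COL4A6, listed by identifier only and placed head to head with COL4A5 in the genome, was at or under 0.234 FPKM in all 6 libraries. COL4A4 was too low to be tested, with 1, 1 and 0 fragments in the PEF lines and 6, 43 and 1 in the piPSC lines.

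Type VI collagen forms beaded filaments around cells. COL6A3 (ENSSSCG00000027331, chr15:137011430-137104085, minus strand) was at 220.2, 401 and 15.2 FPKM in the PEF lines and 39.1, 0.706 and 0.0963 FPKM in the piPSC lines. It spanned 26.3-fold among the PEF lines, with PEF8 under the piPSC5 value, and 406-fold among the piPSC lines. Within each line the piPSC value was lower, with log2 ratios of -2.46, -7.88 and -3.89 in lines 5, 7 and 8, but the log2 fold change of -4.74 (SE 1.69, adjusted p = 0.0528) missed the threshold. With the line as a block the adjusted p was 0.0249, and COL6A3 was also called lower without PEF8 (0.0272), without piPSC5 (0.018), without both libraries of line 8 (0.0402) and after either rescaling. COL6A1, which the table lists by identifier only, was at 657, 1387 and 581 FPKM in the PEF lines and at 59.4, 24.6 and 3.67 in the piPSC lines, with a log2 fold change of -5.39 (SE 0.90, adjusted p = 0.00361). The ratio of COL6A1 to COL6A3 in FPKM was 2.98 and 3.46 in PEF5 and PEF7 but 38.1 in PEF8, and it was 1.52, 34.9 and 38.1 in the piPSC libraries. This ratio varied as much among the PEF lines as between the groups (exact two-sided permutation p = 0.7). COL6A5 and COL6A6 had at most 3 and 11 fragments in any library.

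The chains that link matrix layers and fibrils were lower in most cases. COL7A1 (ENSSSCG00000011355, chr13:31262051-31295085, minus strand), the chain of the fibrils that fasten the epidermis to the dermis, was at 5.84, 4.6 and 12.7 FPKM in the PEF lines and 0.52, 0.169 and 0.638 FPKM in the piPSC lines. Its groups lay apart, with a log2 fold change of -2.50 (SE 0.37, adjusted p = 0.00238). COL12A1 (ENSSSCG00000004484, chr1:90744289-90872963, plus strand), which lies along type I fibrils, was at 87.3, 114 and 119 FPKM in the PEF lines and 9.43, 2.81 and 30.7 FPKM in the piPSC lines. COL12A1 fell by a log2 fold change of -3.30 (SE 0.70, adjusted p = 0.00891), and its piPSC values differed 10.9-fold while its PEF values differed 1.36-fold. COL16A1 (ENSSSCG00000003603, chr6:88177191-88239392, minus strand), another fibril-associated chain, was at 51.1, 114 and 64.3 FPKM in the PEF lines and 2.18, 0.252 and 7.5 FPKM in the piPSC lines. The change of COL16A1 was -4.50 (SE 0.69, adjusted p = 0.0026), with piPSC7 the lowest and piPSC8 the highest piPSC library, as for COL12A1.

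The 2 remaining fibril-associated chains that were tested were not called. COL14A1 (ENSSSCG00000005997, chr4:18690198-19180122, minus strand), a relative of COL12A1, was at 0.745, 8.05 and 2.24 FPKM in the PEF lines and 0.408, 0.153 and 1.64 FPKM in the piPSC lines. Only line 7 showed a wide difference, with a log2 ratio of -2.97 against -0.31 and -0.29 in lines 5 and 8, and the log2 fold change was -1.19 (SE 0.64, adjusted p = 0.156). COL9A2 (ENSSSCG00000023322, chr6:96062785-96081595, minus strand), a chain that decorates the type II fibrils of cartilage, was at 3.52, 0.464 and 0.819 FPKM in the PEF lines and 6.84, 151 and 1.39 FPKM in the piPSC lines. The value of piPSC7, from 10426 fragments, was 108-fold above that of piPSC8. Its log2 fold change was 2.63 (SE 1.45, adjusted p = 0.167), which was not called. It was 0.92 without piPSC7, still not called, and COL9A2 was called higher without piPSC8 (adjusted p = 0.0455). MATN3, a cartilage matrix gene, stood at 4.20 FPKM in piPSC7 and at or under 0.5 in the other libraries, and COMP was at 0 in the 3 piPSC libraries. Their part in the level of COL9A2 was not tested.

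Among the short chain network collagens, PEF8 stood apart from the other PEF lines. COL8A1 (ENSSSCG00000011973, chr13:159216142-159374718, minus strand), a chain of the sheet under the corneal endothelium and of vessel walls, was at 81.4, 55.3 and 2.1 FPKM in the PEF lines and 1.08, 0.634 and 0.326 FPKM in the piPSC lines. COL8A2 (ENSSSCG00000033641, chr6:92244005-92262808, minus strand), its partner, was at 3.94, 6.48 and 0.0205 FPKM in the PEF lines and 0.0516, 0.0783 and 0.0282 FPKM in the piPSC lines. COL8A1 was 38.8-fold and COL8A2 316-fold higher in the highest PEF line than in PEF8. Every piPSC value of COL8A1 lay below PEF8, and COL8A1 was called lower at -3.88 (SE 1.18, adjusted p = 0.0318). That call was lost without any 1 of PEF5 (0.0941), PEF7 (0.1), piPSC5 (0.071), piPSC7 (0.0719) and piPSC8 (0.0725), without the filter on low values (0.0593) and with voom (0.202). COL8A2, with 2 fragments in PEF8 and 5, 6 and 2 in the piPSC libraries, was not called at -1.67 (SE 0.71, adjusted p = 0.0881), and was called lower without PEF8 (0.0026) or without both libraries of line 8 (0.00491).

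Both multiplexins, chains of the basement membrane zone whose ends can be cut off as inhibitors of vessel growth, were called lower. COL15A1 (ENSSSCG00000005380, chr1:240710270-240829204, plus strand) was at 121, 75.8 and 29.7 FPKM in the PEF lines and 5.63, 0.262 and 0.551 FPKM in the piPSC lines. Its groups were clearly apart, with a log2 fold change of -4.81 (SE 0.75, adjusted p = 0.00285). COL18A1 (ENSSSCG00000038089, chr13:207907834-207985181, plus strand), the source of endostatin, was at 67.9, 109 and 33.1 FPKM in the PEF lines and 11.9, 3.98 and 30.1 FPKM in the piPSC lines. In line 8 the 2 values were close, with a log2 ratio of -0.13, and the log2 fold change over the lines was -2.34 (SE 0.72, adjusted p = 0.0323). The call of COL18A1 was lost with the line as a block (adjusted p = 0.0777), without PEF5 (0.0871), PEF7 (0.101), piPSC5 (0.0805) or piPSC7 (0.0652), and without the filter on low values (0.0588).

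The 10 chains that were not tested had a mean under 0.5 FPKM over the 6 libraries. COL17A1, the transmembrane collagen of hemidesmosomes in keratinocytes, had 38, 27 and 25 fragments in the PEF lines and 7, 2 and 2 in the piPSC lines, with no overlap between the groups. Markers of keratinocytes (5 of 6 in the table) summed to 3.04 to 3.35 FPKM in PEFs and 4.74 to 9.12 in piPSCs. KRT10 made up most of each sum, at 2.92, 2.77 and 3.13 FPKM in PEFs and 5.09, 5.24 and 4.52 in piPSCs. KRT14 was at 3.04 FPKM in piPSC7, and TP63 was at 0 in every piPSC library. COL10A1, the chain of hypertrophic cartilage, had 42 fragments in piPSC5 and at most 4 elsewhere. COL13A1, a transmembrane chain of the neuromuscular junction, had 12 fragments in piPSC5 and 23 in piPSC7 and at most 4 in the others. COL2A1, COL6A5, COL6A6, COL11A2, COL20A1 and COL26A1 had at most 11 fragments in any library. Where a library had 0 fragments, up to 3 are allowed by counting error, and the last 6 chains named were too low to be compared between the groups.

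The chains varied more between lines of a group than most genes did. The median standard deviation of log2(FPKM + 1) over the 3 lines was 0.82 for the 20 tested chains and 0.26 for all tested genes in PEFs, and 1.03 and 0.27 in piPSCs. A standard deviation over 1 was found for 10 of the 20 chains among the piPSC lines, against 8.09% of all tested genes, and for 6 of the 20 among the PEF lines, against 4.46%. All tested genes were not matched to the chains by level, and the pseudocount shrinks differences at low values. Of the 12 chains called lower, 6 kept their highest piPSC level in piPSC5, 5 in piPSC8 and 1 in piPSC7. Those highest in piPSC5 were COL1A1, COL1A2, COL5A1, COL5A2, COL8A1 and COL15A1, and those highest in piPSC8 were COL3A1, COL7A1, COL12A1, COL16A1 and COL18A1. Some fibroblast markers, picked after their values were seen, were uneven among the piPSC lines as well. FBN1 was at 4.61, 2.43 and 21.4 FPKM in piPSC5, piPSC7 and piPSC8, FN1 was at 27.0, 1.63 and 94.9, and THY1 was at 4.47, 1.24 and 0.385. FAP, at 1.88, 6.05 and 3.11 FPKM in the PEF lines, was at 0.207, 0.44 and 7.51 in the piPSC lines.

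Some of the chain genes are neighbours in the genome. COL3A1 and COL5A2 lie 15188 bases apart on chromosome 15 and are transcribed toward each other, and both were called lower, by log2 fold changes of -2.51 and -3.04. COL6A6 and COL6A5 lie 81406 bases apart on chromosome 13 on the same strand, and both were nearly silent in the 6 libraries. The 2 chains of type I collagen lie on different chromosomes, 12 and 9. Their ratio in FPKM, COL1A1 to COL1A2, was 0.955, 1.19 and 0.614 in the PEF lines and 1.3, 0.478 and 0.534 in the piPSC lines. These values overlapped, with an exact two-sided permutation p of 0.8 and a difference of -0.23 on the log2(FPKM + 1) scale. The ratio of COL5A2 to COL1A1, by contrast, ran from 0.109 to 0.325 in the PEF libraries and was 1.09, 7.55 and 9.78 in the piPSC libraries, without overlap and with the smallest exact permutation p of 0.1 (adjusted p = 0.175 over 7 ratios). The ratios of COL8A1 to COL8A2 and of COL4A5 to COL4A6 had the same p of 0.1 on the log2(FPKM + 1) scale, but in FPKM their groups overlapped. COL8A1 to COL8A2 was 20.6, 8.53 and 102 in the PEF lines and 21, 8.09 and 11.6 in the piPSC lines, and COL4A5 to COL4A6 was 30.7, 21.4 and 36.9 against 32.1, 52.1 and 57.1. The ratios of COL3A1 and of COL5A2 to COL1A1 were chosen after their values were seen.

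The enzymes and chaperones that build collagen were called lower in piPSCs in most cases. Of 31 such genes 29 were tested, of which 19 were called lower, 0 higher and 10 not called, with a median log2 fold change of -2.0. Over all tested genes 16.7% were called lower and 20.2% higher. In this list and in the 2 that follow, limma gave 0 genes higher at an unadjusted p under 0.05, and voom called 0 higher. P4HB, the disulfide isomerase that is also the shared subunit of prolyl hydroxylase, was at 549, 549 and 483 FPKM in PEFs and 361, 344 and 281 in piPSCs. Its log2 fold change of -0.68 (SE 0.16, adjusted p = 0.0136) was under the 2-fold limit. SERPINH1, the chaperone HSP47 that binds the finished helix, was at 345, 452 and 336 FPKM in PEFs and 120.5, 163 and 46.6 in piPSCs and was called lower, at -1.93 (SE 0.45, adjusted p = 0.0121). FKBP10, a prolyl isomerase of the same compartment, was at 168, 236 and 146 FPKM in PEFs and 53.7, 88.1 and 86.9 in piPSCs, a change of -1.26 (SE 0.27, adjusted p = 0.00867). PCOLCE, which speeds the removal of the end of the procollagen chain, was at 166, 289.8 and 170.3 FPKM in PEFs and 23, 21.1 and 25.8 in piPSCs, a change of -3.07 (SE 0.24, adjusted p = 0.000343). These 4, named for the highest mean FPKM of the list, remained above 20 FPKM in every piPSC library. COL1A1 and COL1A2 stayed under 9 FPKM in piPSC7 and piPSC8, but in piPSC5 they were at 58.4 and 44.8 FPKM, above PCOLCE. Not every gene of the list kept such a level. In the piPSC lines LOXL1 was at 4.25, 1.38 and 0.0709 FPKM and ADAMTS2 at 0.875, 0.0123 and 0.

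The cell surface receptors for collagen were tested as a further list. Of 10 receptor genes 9 were in the table and 8 were tested, of which 3 were called lower and 0 higher, with a median log2 fold change of -1.10. The shares over all tested genes were 16.7% lower and 20.2% higher. After rescaling to the median ratio 5 of them were called lower, against 20.2% of all tested genes. ITGB1, the beta chain of the collagen-binding integrins, was at 314, 229 and 195 FPKM in PEFs and 153, 199.6 and 137 in piPSCs and was not called, at -0.58 (SE 0.23, adjusted p = 0.0777). MRC2, an endocytic receptor that takes up collagen for breakdown, was at 89.4, 137 and 136 FPKM in PEFs and 3.35, 1.06 and 2.07 in piPSCs and fell by a log2 fold change of -5.31 (SE 0.32, adjusted p = 0.000179). DDR2, a receptor kinase for fibrillar collagen, was at 21.5, 13.3 and 12.4 FPKM in PEFs and 6.98, 10.9 and 4.78 in piPSCs, a change of -0.99 (SE 0.33, adjusted p = 0.0429) that was just under the 2-fold limit. DDR1, its relative, was at 11.8, 7.23 and 12.3 FPKM in PEFs and 1.41, 4.14 and 0.296 in piPSCs, a change of -2.15 (SE 0.51, adjusted p = 0.0128).

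The partners of type IV collagen in basement membranes were lower with 1 exception among those named. Of 16 genes 15 were in the table and 11 were tested, of which 8 were called lower and 0 higher, with a median log2 fold change of -2.23. The shares over all tested genes were 16.7% lower and 20.2% higher. Without both libraries of line 8, 6 of the partners were called lower, against 15.8% of all tested genes. NID1, which bridges laminin and type IV collagen, was at 103, 128 and 136 FPKM in PEFs and 25.4, 1.01 and 0.129 in piPSCs, a change of -4.97 (SE 1.10, adjusted p = 0.0102). LAMC1, the common gamma chain of laminins, was at 54.9, 62.1 and 64.6 FPKM in PEFs and 53.7, 38.9 and 48.4 in piPSCs and was not called, at -0.37 (SE 0.17, adjusted p = 0.107). LAMB1, a laminin beta chain, was at 104, 74.7 and 114 FPKM in PEFs and 6.66, 7.99 and 1.14 in piPSCs, a change of -4.20 (SE 0.54, adjusted p = 0.00144). NID2 was at 86.2, 34.2 and 132 FPKM in PEFs and 1.23, 1.72 and 0.671 in piPSCs, a change of -5.10 (SE 0.49, adjusted p = 0.000549). In piPSC8, where COL4A2 stood at 90.7 FPKM, NID1 was at 0.129, LAMB1 at 1.14 and NID2 at 0.671 FPKM, each the lowest of the 6 libraries. LAMC1, the remaining partner named, was at 48.4 FPKM there, above its value of 38.9 in piPSC7.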

How the data were processed

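RNA-seq of 3 PEF and 3 piPSC lines was used as deposited: FPKM per gene made by the authors, for which the submitters' processing notes name HISAT2 2.1.0, Bowtie2 2.2.3, HTSeq 0.6.0 and the build Sscrofa11.1. The annotation release and the treatment of shared reads are not given in the sources used here, and the library kit does not mark strand. All 6 value columns of the table belong to labelled samples.

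Whole fragments and gene lengths were recovered from the FPKM values for all 18007 genes (100% of genes, each value within 0.0005 of a whole fragment). Groups were compared with the moderated test of limma (version 3.58.1, R version 4.3.3, lmFit followed by trended eBayes) on log2(FPKM + 1), without pairing, for genes with a mean of 0.5 FPKM or more, with two-sided p-values adjusted by Benjamini-Hochberg over all tested genes. The fit was tested on simulated data. PEF and piPSC lines of the same number come from the same embryo. After each group's mean was subtracted, such pairs had correlations of 0.0921, 0.0946 and 0.08, against -0.121 to 0.0553 for other pairs. Blocking on the line was therefore an alternative, beside a pseudocount of 0.1, no filter, both rescalings, voom on recovered fragments and leaving out each library. Chain ratios were compared by exact permutation tests. The p-values measure the spread between lines of 1 library each. Exons, glycine codons and promoters were read from RefSeq for Sscrofa11.1 in Python 3.11.15.

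The chains, the lists of processing, receptor and basement membrane genes and the cell type markers were chosen with earlier results of these data known, and the alternative without line 8 was added after the values were seen. All chains at a mean of 0.5 FPKM or more were named with their values, and from each other list the 4 genes with the highest mean FPKM. Chains listed by identifier only were named from a table of gene identifiers and are not among the 30.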

Additional observations from a re-analysis of the deposited data

How the results depend on the processing

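Of the 13 called chains, COL1A1, COL1A2, COL3A1, COL5A1, COL5A2, COL7A1, COL12A1, COL15A1 and COL16A1 stayed called under each of the 13 alternatives, and no tested chain changed direction under any. With the line as a replicate block, 11 chains were called lower and 1 higher, and the block changed the calls of COL18A1, COL27A1 and COL6A3 alone among the chains. Leaving out 1 library at a time gave 9 to 13 chains called lower and 0 to 2 called higher, with COL11A1 lost without piPSC5, COL5A3 gained without PEF8 and COL9A2 gained without piPSC8. It also gave 0 to 1 processing genes called higher, the 1 without piPSC8, and 2 to 4 receptor genes called lower. Without both libraries of line 8, 2 chains and 1 processing gene were called higher, and 20 processing genes (19 with all libraries) and 6 basement membrane partners (8 with all libraries) were called lower. Without the filter on low values the median of the chains was -1.16, since the untested chains near 0 then entered it, and 9 chains were called lower. Rescaling to the median ratio called 5 receptor genes lower, against 3 as deposited, and the cause was not tested. With a pseudocount of 0.1 the COL5A1 to COL5A2 ratio differed by -4.09 in place of -3.11, since the smaller pseudocount shrinks low values less. The difference in the COL6A1 to COL6A3 ratio, -0.64, had the opposite sign with that pseudocount (0.4), without PEF8 (0.52) and without piPSC5 (0.16).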

Other observations

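The table lists 9 further collagen chains by identifier only. COL25A1, a transmembrane chain of neurons, had 0, 0 and 1 fragments in PEF5, PEF7 and PEF8 and 458, 71 and 426 in the piPSC lines, where it stood at 4.33, 0.849 and 5.5 FPKM. In the fit of all genes COL25A1 was called higher, at a log2 fold change of 2.0 (SE 0.48, adjusted p = 0.0138), a fitted value that depends on the pseudocount since the PEF lines were at or near 0. COL9A3, a partner of COL9A2 in type IX collagen, was at 3.11, 2.06 and 0.402 FPKM in the PEF lines and at 0.135, 0.682 and 0 in the piPSC lines, so that piPSC7, with 151 FPKM of COL9A2, had 12 fragments of COL9A3. COL9A1, the remaining chain of type IX, had at most 7 fragments in any library. COL24A1, a fibrillar chain, was at 0.636, 0.649 and 0.651 FPKM in the PEF lines and at 0.655, 0.249 and 2.64 in the piPSC lines. The values of COL25A1, COL9A3 and COL24A1 were singled out after they were seen.

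Markers of other cell types were also summed. Those of skeletal muscle (4 of 6 in the table) gave 0.0814 to 0.755 FPKM in PEFs and 0.199 to 14.2 in piPSCs, with the highest sum in piPSC7, nearly all of it from DES, while MYOD1 and MYF5 were at 0 there. Those of Schwann cells and melanocytes (6 of 6) gave 2.38 to 7.38 and 4.08 to 4.31 FPKM, and those of blood cells (3 of 5) gave 10.4 to 22.8 and 1.07 to 3.26 FPKM.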
